A study of Sus scrofa with 40 samples.

Results

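SPARC and SMOC2 are the members of the SPARC (BM-40) family examined here, through 3 probes on RNA of the Longissimus muscle (LM) of Basque (B) and Large White (LW) pigs. The members were chosen by gene symbol. They are BM190040.1_1872 and CF792848.1_25 for SPARC and BQ604505.1_1276 for SMOC2, that is, 3 of the 15198 gene probes of the array and 2 of the 598 genes to which a probe could be paired by name. In the files at hand, symbols could be paired with probes only through the study's list of probes with higher expression in LW pigs. A lower level in B pigs was therefore given by the choice of probes and is not independent evidence of direction. Housing system, the interaction of breed with housing system, and covariation between pigs within a breed did not enter that choice. All 3 probes were tested, and each was well above background on 40 of 40 arrays.

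SPARC, also known as osteonectin, is a secreted matricellular glycoprotein that binds calcium and fibrillar collagens and takes part in the assembly of collagen fibrils. SMOC2 is a secreted modular calcium-binding protein of the extracellular matrix. Proteins of the family pair a follistatin-like domain with an extracellular calcium-binding domain of EF-hands, and in muscle SPARC is made by connective tissue, vessel and myogenic cells.

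The 40 pigs were castrated males in 4 groups of 10, slaughtered at an average live weight of 145 kg: B and LW pigs in a conventional system (C, indoors on slatted floor) and in an alternative system (A, bedding with outdoor access). The endpoint was a common average weight rather than a common age. By the study's account both breeds also got equal amounts of feed at a given weight, though LW pigs have the larger appetite. Breed, age at slaughter and feeding therefore cannot be told apart. Each array set the RNA of 1 pig (Cy3) against a pool of all 40 pigs (Cy5), without dye swap, and values are log2 ratios of pig to pool with the median of each array at 0. By the study's methods littermates were split between the housing systems, but the labels name no litter, sire or day of slaughter, so the P values treat littermates as independent. There were 7 slides and 3 scan days, with pigs of both breeds on each slide, and the arrays' median Cy3 intensity ranged from 128 to 165. On 2 arrays (LW alternative replicate 18 and B alternative replicate 15) the deposited log2 ratios and the scanner output correlated less (r of 0.833 and 0.680) than on the others (0.967 or more). On these arrays alone, 6 to 10 spots in each channel had a local background over 10 times the array's median, and this upset the background correction: the fitted mean of the Cy5 background was -707 and -942, compared with -11.0 to 7.76 on the others. With the local background of those spots capped (set to the array's median), an alternative chosen after seeing the data, it was -4.79 and -5.53. The values of these 2 pigs as given below are therefore faulty. The breed differences of the members and their correlations over each whole breed are also given without these pigs and with the background capped. Correlations between members on residuals, within groups, within scan days and without the farthest pigs were not taken again in these ways. In whole muscle, fewer cells that express a gene and less RNA per cell cannot be told apart.

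The probe sequences show what was hybridised, since both SPARC probes answer for the same gene but cover separate stretches. The longest run of bases that the SPARC probes have in common is 5, or 6 when the reverse complement of one is taken, and no other probe on the array comes from any of the 3 contigs. The last 30 bases of each SPARC probe (bases 31 to 60 of 60) and the whole SMOC2 probe, as the array design gives them, are as follows.
BM190040.1_1872: cctttgctttctagcatgttcccccacccc
CF792848.1_25: ttctcttgattAATAAAgggaaaagggggg
BQ604505.1_1276: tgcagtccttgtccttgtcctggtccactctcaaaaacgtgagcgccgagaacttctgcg
Capitals mark the letters AATAAA, the form of the canonical polyadenylation signal, which start at base 42 of CF792848.1_25. These letters are found as written in 1322 of the 15198 gene probes (8.7%) and on either strand in 1920 (12.6%), and a match is a description of letters and not of a site. Both SPARC probes have a GC content of 45%, the median of the array, and the SMOC2 probe 55%. Where the probes lie on the porcine transcripts was not tested, as no transcript sequence was at hand.

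The members differed in signal strength. On BM190040.1_1872 the median Cy3 signal was 989 in B and 2596 in LW pigs, or 22.2 and 59.1 times the local background. On CF792848.1_25 it was 295 and 435 (7.08 and 9.91 times background). The SMOC2 probe was dim, with 100.3 in B and 153 in LW pigs (2.32 and 3.52 times background). The pool is the same RNA on every array, so the spread of its signal was set beside that of the pigs. Within groups the centred Cy5 signal of BM190040.1_1872 had an SD of 0.42 (log2), the Cy3 signal 0.67 and their ratio 0.47. The Cy5 spread came mainly from the faulty background correction of 2 arrays: their scanned Cy5 signals were 3144 and 3160 (median of all arrays 3273), but their corrected and centred values were 1.65 and 1.82, compared with 3.36 to 3.69 on the others. Without these arrays, a choice made after seeing the data, the SDs were 0.078, 0.47 and 0.48, and with the background capped 0.10, 0.49 and 0.48. For CF792848.1_25 the SDs were 0.26, 0.34 and 0.30, and 0.18, 0.28 and 0.31 without these arrays. For SMOC2 they were 0.11, 0.15 and 0.15, and 0.096, 0.14 and 0.15 without them. The breeds differed by -0.037 in the pool signal of BM190040.1_1872 and by -1.51 in its Cy3 signal, so the difference lay in the channel of the pigs. In SMOC2 these differences were -0.072 and -0.53, and in CF792848.1_25 they were 0.066 and -0.60.

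Both SPARC probes and the SMOC2 probe were lower in B than in LW pigs. At an adjusted P value under 0.05 in limma, 3 of 3 probes were called lower in B pigs, compared with 21.1% of the 12222 tested probes called in either direction and 9.49% called lower in B, from which nothing is read since the list used this contrast. The same 3 were called within C, where 8.24% of tested probes were called, and within A, where 7.58% were called. These shares stand for 1007 and 926 probes and depended on the 2 arrays with the faulty correction, as 1636 and 1608 were called without them, 1580 and 1620 with the background capped and 1731 and 2181 with array weights. Over both housing systems, 0 of 3 members had every B pig below every LW pig, as 0.0245% of tested probes had. Within C this held for the SMOC2 probe (0.155% of tested probes) and within A for both SPARC probes (0.262%). With the background capped it no longer held for BM190040.1_1872 in A, where LW alternative replicate 18 moved from 0.29 to -0.12 and so below B alternative replicate 18 (-0.039).

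On BM190040.1_1872, the brighter SPARC probe, log2 ratios of B pigs ranged from -1.58 to -0.22 in C (median -0.75) and from -1.69 to -0.039 in A (median -1.07). In LW pigs they ranged from -0.39 to 1.35 in C (median 0.67) and from 0.29 to 0.90 in A (median 0.53). The breeds overlapped through a few pigs: LW conventional replicates 1 (-0.39) and 8 (-0.36) lay below the highest B pig, B alternative replicate 18 (-0.039), whereas 17 of 20 B pigs lay below every LW pig. The order of the group medians was B in A, B in C, LW in A and LW in C, and neighbours of the same breed did not differ beyond their spread. The difference of B from LW pigs was -1.47 (SE 0.16, 95% interval -1.78 to -1.15, adjusted P = 2.42e-08), a 2.76-fold lower level in B pigs. It was -1.48 in C (adjusted P = 4.72e-05) and -1.45 in A (adjusted P = 5.40e-05). By size, this was the 8th largest decrease in B pigs among 12222 probes, a description only, since the list that named the probe used this contrast.

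Slides and scan days each held both breeds, so the SPARC difference could be read within them. For BM190040.1_1872 it was negative on all 7 slides, from -1.81 on slide 4 to -0.86 on slide 6, and was -1.79, -1.22 and -1.68 on the 3 scan days. The difference was smallest on slide 6, which held 4 B and 3 LW pigs, LW conventional replicate 8 among them. That slide had both the highest B mean (-0.62) and the lowest LW mean (0.25) of the 7 slides, and the cause was not tested. Without the 2 arrays that stood apart it was -1.46 (adjusted P = 5.57e-08), and with their background capped -1.43 (-1.48 in C and -1.38 in A).

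On CF792848.1_25, the other SPARC probe, 3 spots were omitted because the scanner software had marked them as outliers (B conventional replicate 10, LW conventional replicate 1 and LW alternative replicate 20). B pigs ranged from -0.53 to 0.45 in C (n = 9, median -0.28) and from -0.71 to 0.14 in A (n = 10, median -0.18). LW pigs ranged from -0.32 to 1.03 in C (n = 9, median 0.54) and from 0.15 to 0.72 in A (n = 9, median 0.39). Over both systems 13 of 19 B pigs lay above the lowest LW pig, LW conventional replicate 8 (-0.32), and 8 of 18 LW pigs lay below the highest B pig, B conventional replicate 4 (0.45). These pigs were also the second lowest LW pig and the highest B pig of C on the brighter probe. In A the highest B pig (0.14) lay just under the lowest LW pig (0.15). The breed difference was -0.68 (SE 0.095, 95% interval -0.88 to -0.49, adjusted P = 4.05e-06), a 1.61-fold lower level in B pigs, and the LW median lay above 19 of 19 B pigs. It was -0.65 in C (adjusted P = 0.00259) and -0.72 in A (adjusted P = 0.00109).

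Within batches this probe kept its sign. The 7 slides gave differences from -0.89 to -0.50, and the scan days gave -0.83, -0.65 and -0.64. Without the 2 arrays that stood apart the difference was -0.68 (adjusted P = 7.49e-06), and with their background capped -0.67 (-0.65 in C and -0.70 in A). The breed difference of BM190040.1_1872 exceeded that of CF792848.1_25 by -0.82 (SE 0.11) when the probes were subtracted within each array, so the size of the SPARC difference depended on the probe. The pair was known from earlier results as discordant, so that value is a description, and why the probes differ was not tested.

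On BQ604505.1_1276, the SMOC2 probe, B pigs ranged from -0.33 to -0.17 in C (median -0.27) and from -0.29 to 0.24 in A (median -0.23). LW pigs ranged from 0.0013 to 0.48 in C (median 0.31) and from 0.0078 to 0.40 in A (median 0.24). In C all B pigs lay below all LW pigs, whereas in A 2 B pigs lay above the lowest LW pig, B alternative replicate 16 at 0.24 and B alternative replicate 15, 1 of the arrays that stood apart, at 0.012 (-0.29 with its background capped). The breed difference was -0.45 (SE 0.045, 95% interval -0.54 to -0.36, adjusted P = 6.50e-09), a 1.36-fold lower level in B pigs, and the LW median lay above 20 of 20 B pigs. It was -0.51 in C (adjusted P = 1.97e-06) and -0.38 in A (adjusted P = 1.71e-04).

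The size of the SMOC2 difference and its SE, unlike its sign and its call, depended on how the signals were processed. It was -0.98 (SE 0.073) with Agilent's processed signals and -0.88 (SE 0.072) with the deposited log2 ratios, and the cause was not tested. With these values the SMOC2 difference was larger than that of CF792848.1_25 (-0.84 and -0.81), whereas above it was smaller, so the order of these probes was not stable. On the 7 slides it ranged from -0.60 to -0.33, and on the 3 scan days it was -0.46, -0.48 and -0.43. Without the 2 arrays that stood apart it was -0.46 (adjusted P = 4.57e-09), and with their background capped -0.47 (-0.51 in C and -0.43 in A).

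**Figure D1:**
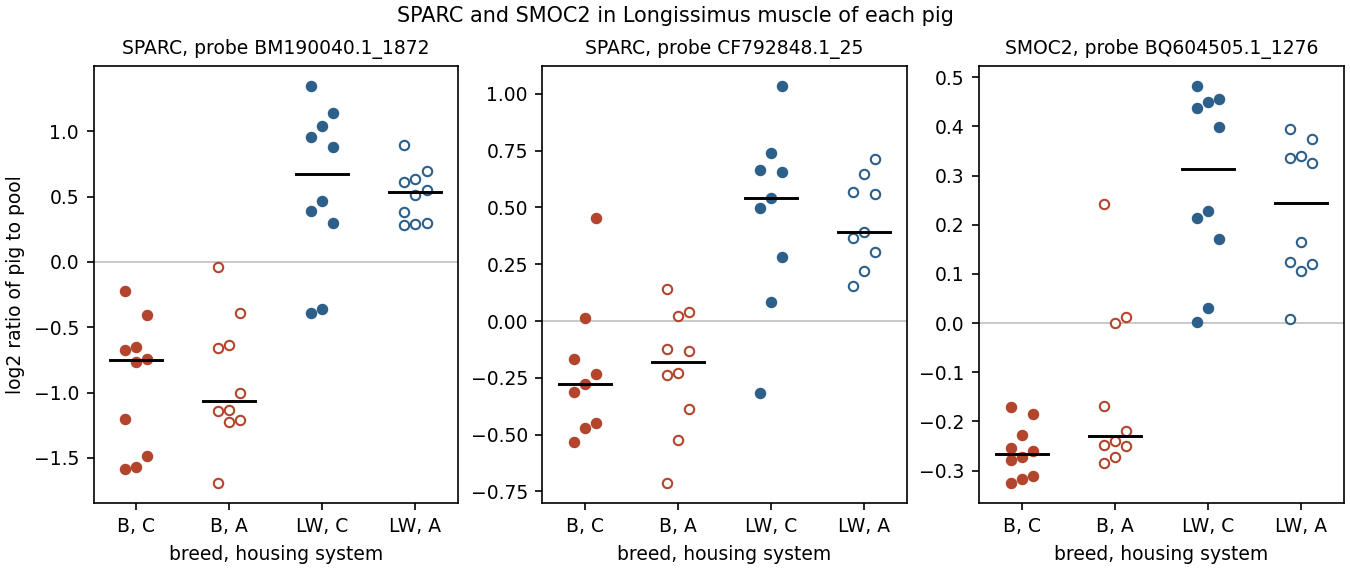
Log2 ratio of pig to pool (vertical axes) in the 4 groups of 10 pigs for the 3 probes, 1 panel each (filled points for C, open points for A). Each point is a pig and each bar the median of a group. On BM190040.1_1872 all B pigs in A lie below all LW pigs in A, though not once the background of LW alternative replicate 18 is capped, and on the SMOC2 probe all B pigs in C lie below all LW pigs in C.

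How far pigs of a group differ set the probes apart as well. The within-group SD of BM190040.1_1872 (0.47) was at percentile 97.6 of tested probes, whose median was 0.18, and that of CF792848.1_25 (0.30) was at percentile 89.0. SMOC2, with an SD of 0.15, was at percentile 30.6 in the fit above, and the larger SE with the other signals shows that its spread, too, depended on processing. For SPARC on BM190040.1_1872, the SD of LW pigs was 0.61 in C and 0.20 in A (0.28 with the background capped), while B pigs had 0.49 and 0.48. For SMOC2 the SD of B pigs was 0.052 in C and 0.17 in A. A difference in spread between the groups was not tested.

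The comparison of housing systems asks whether bedding and outdoor access went with a change in these transcripts. No member was called: with limma 0 of 3 probes passed for A against C, as 0% of the tested probes did (0 of 12222, with 336 under an unadjusted P value of 0.05). A two-step analysis after the study's methods also called 0. It was run on the signals and the 12222 probes used here, not on the study's own normalized values and smaller set of spots. For SPARC the difference of A from C was 0.0086 on BM190040.1_1872 (95% interval -0.32 to 0.34, P = 0.958, adjusted P = 1.00). On CF792848.1_25 it was 0.022 (95% interval -0.18 to 0.23, P = 0.832). For SMOC2 it was 0.063 (95% interval -0.031 to 0.16, P = 0.182). The intervals leave room for a SPARC difference of up to 0.34 on the brighter probe, so they do not show that the housing systems were alike. The sign for SPARC turned with the model, as with slide left out of it (-0.022 and -0.012), and no housing value was called under any of the 16 alternatives in which housing was tested.

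Within breeds, too, no member was called for housing, as 0% of tested probes were in B pigs (limma, 296 under an unadjusted P value of 0.05, 0 in the two-step analysis) and 0% in LW pigs (355 and 0). In B pigs SMOC2 was 0.13 higher in A than in C (95% interval -0.0036 to 0.25, P = 0.0564, adjusted P = 0.999), and in LW pigs the difference was 0.00098. The B pigs that made the SMOC2 values of A reach higher were B alternative replicates 16 (0.24), 15 (0.012) and 20 (0.00053), and the other 7 lay between -0.29 and -0.17. With the background capped replicate 15 was at -0.29, and SMOC2 in B pigs was 0.097 higher in A than in C. SPARC differed by 0.025 in B and -0.0080 in LW pigs on BM190040.1_1872, and by -0.011 and 0.055 on CF792848.1_25.

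Whether the breed difference itself depended on housing was tested by the interaction, for which 0 of 3 members and 0% of tested probes were called (limma, 312 under an unadjusted P value of 0.05, 0 in the two-step analysis). The interaction was 0.033 for BM190040.1_1872 (95% interval -0.60 to 0.67, P = 0.916, adjusted P = 0.996). For CF792848.1_25 it was -0.066 (95% interval -0.47 to 0.33, P = 0.738). For SMOC2 it was 0.12 (95% interval -0.058 to 0.31, P = 0.176, adjusted P = 0.974). With the background of the 2 arrays capped the interactions were 0.099, -0.048 and 0.081, and 0 of 3 were called. Hence the complete separation of SMOC2 in C and of SPARC in A is not shown to be a difference between the housing systems.

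Covariation between pigs was examined within each breed, as the breeds lie apart, giving 6 relations with two-sided permutation tests and adjustment over the 6. The SPARC probes covaried in both breeds, so a pig with a high value on one tended to be high on the other. In B pigs r was 0.617 (P = 0.0047, adjusted P = 0.0141) and rho 0.612 (P = 0.00627, adjusted P = 0.0188, n = 19). In LW pigs r was 0.753 (P = 0.00057, adjusted P = 0.00342) and rho 0.645 (P = 0.00476, adjusted P = 0.0188, n = 18). Without the 2 pigs farthest from the median of BM190040.1_1872, r was 0.570 in B and 0.617 in LW pigs (adjusted P = 0.0328 in both), whereas rho, at 0.542 and 0.562, no longer passed (adjusted P = 0.0536 in both). On residuals after housing and slide rho passed in B pigs (0.682, adjusted P = 0.0093) and not in LW pigs (0.554, adjusted P = 0.0571). Pigs of a breed come in litter pairs across the housing systems, so r was also taken within each group. In these groups of 9 or 10 pigs, r of the SPARC probes was 0.804 for B in C, 0.439 for B in A, 0.782 for LW in C and 0.657 for LW in A, and with permutation tests adjusted over 12 relations none of these r passed (adjusted P from 0.0625 to 0.380). Of the rho values, that of B in C passed (0.933, permutation adjusted P = 0.00899), and the others were 0.345, 0.533 and 0.600 (adjusted P from 0.295 to 0.448). Within scan days r was 0.700 (n = 10) and 0.626 (n = 6) in B pigs and 0.789 (n = 10) in LW pigs, with permutation P values adjusted over 10 relations of 0.0599, 0.453 and 0.0372. The rho values on these days were 0.891, 0.0857 and 0.661 (permutation adjusted P = 0.0115, 0.919 and 0.110). The 6 B pigs include B alternative replicate 15 and the LW pigs LW alternative replicate 18, both faulty arrays that were kept as they are here.

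SPARC on BM190040.1_1872 and SMOC2 were not shown to covary. In B pigs r was 0.0669 (P = 0.787, adjusted P = 0.787) and rho 0.283 (P = 0.226, adjusted P = 0.226, n = 20). The sign in B pigs was not stable, with r of -0.0271 on residuals after housing and slide, -0.0140 in the B pigs of A and -0.0719 with Agilent's processed signals. The values on residuals and in A include the faulty array of B alternative replicate 15 and were not taken with its background capped. Whether their signs rest on that fault was not tested. In LW pigs r was 0.339 (P = 0.145, adjusted P = 0.174) and rho 0.355 (P = 0.125, adjusted P = 0.188, n = 20). Without the 2 farthest pigs r was 0.0617 in B and 0.403 in LW pigs. By scan day, r was 0.307 (n = 10) and -0.0414 (n = 7, B alternative replicate 15 among them) in B pigs. In LW pigs the days differed more, with r of 0.796 (n = 10, permutation adjusted P = 0.0129) and 0.245 (n = 7, exact permutation adjusted P = 0.685). The rho values there were 0.855 (adjusted P = 0.0147) and 0.571 (adjusted P = 0.333), and a difference between days was not tested. The 10 LW pigs with r of 0.796 include LW alternative replicate 18, a faulty array. No value was taken there without it or with its background capped, so this call is not shown to stand apart from the fault.

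CF792848.1_25 and SMOC2 had positive correlations that did not pass the adjusted threshold. In B pigs r was 0.479 (P = 0.0428, adjusted P = 0.0857) and rho 0.521 (P = 0.0256, adjusted P = 0.0513, n = 19). Without the 2 farthest pigs, B conventional replicate 4 and B alternative replicate 11, r in B pigs was 0.625 (adjusted P = 0.0253) while rho, at 0.600, did not pass (adjusted P = 0.0536), so the call rested on which pigs and which measure were taken. In LW pigs r was 0.385 (P = 0.115, adjusted P = 0.172) and rho 0.333 (P = 0.175, adjusted P = 0.210, n = 18), and 0.306 without the 2 farthest. Scan days gave r of 0.318 (n = 10) and 0.429 (n = 6) in B pigs and 0.753 (n = 10, permutation adjusted P = 0.0372) in LW pigs, where rho was 0.758 (adjusted P = 0.0501). These LW pigs include the faulty array of LW alternative replicate 18. As no value was taken there without it or with its background capped, the call of 0.753 is not shown to stand apart from the fault. Without the 2 arrays that stood apart, a choice made after seeing the data, r of the SPARC probes was 0.642 in B and 0.749 in LW pigs, that of BM190040.1_1872 with SMOC2 was 0.132 and 0.322, and that of CF792848.1_25 with SMOC2 was 0.486 and 0.371. With the background capped these were 0.638 and 0.761, 0.127 and 0.274, and 0.458 and 0.337, and again only those of the SPARC probes passed (adjusted P = 0.00966 and 0.0018).

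**Figure D2:**
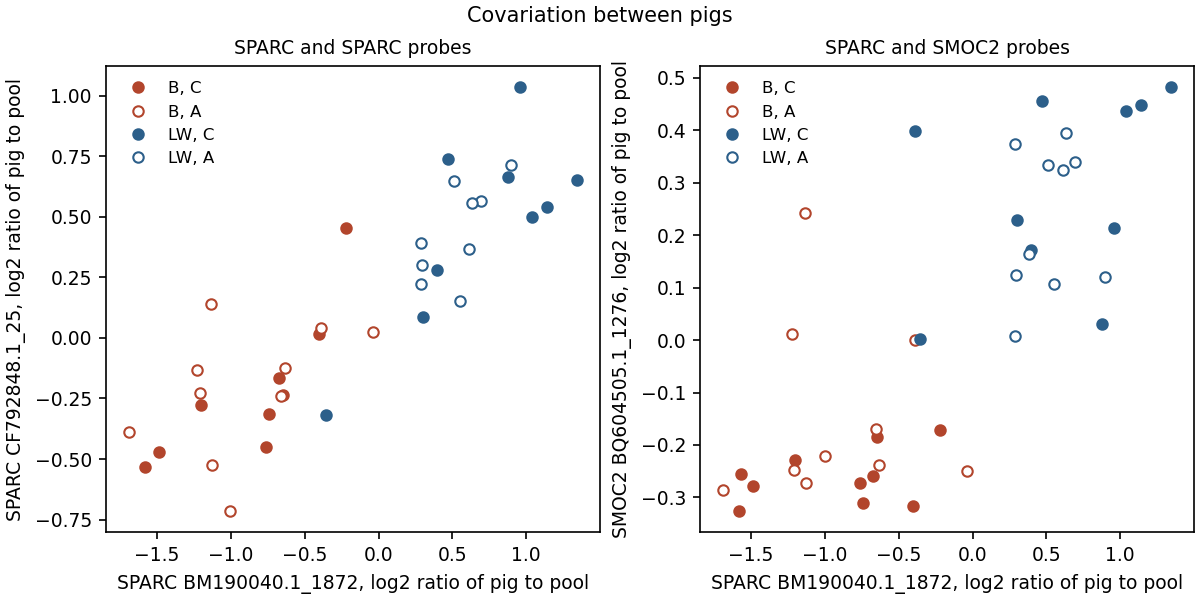
Log2 ratio to the pool on BM190040.1_1872 (horizontal axes) against that on CF792848.1_25 (left) and on the SMOC2 probe (right), with 1 point per pig coloured by breed, filled for C and open for A. The SPARC probes rise together within each breed (r of 0.617 in B and 0.753 in LW pigs), whereas BM190040.1_1872 and SMOC2 have r of 0.0669 and 0.339.

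Other genes of the extracellular matrix give the setting of these members. Of 133 symbols in 7 matrix lists, some of them older and newer names of a gene, 28 genes with 31 probes could be named, SPARC and SMOC2 included. Of these 31 probes, 21 (in 19 genes) were called lower in B pigs and 0 higher, where 9.49% of all tested probes were called lower, with a median difference of -0.31 compared with 0.0011 over all tested probes. This count was 22 without the 2 arrays that stood apart and 22 with their background capped, the further one in the latter being the second COL1A2 probe (adjusted P = 0.0499). As every symbol came from the study's list of probes higher in LW pigs, that direction is not independent evidence, and nothing is read from this count or from those of the single lists against the 9.49%. For the housing systems and for the interaction, 0 of the 31 probes were called. The only other named gene of the SPARC family was FSTL1, a follistatin-like secreted glycoprotein, with a difference of -0.30 (adjusted P = 0.0936).

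Among the fibril collagens, 2 of 3 named genes had a called probe. COL16A1, a collagen associated with fibrils, differed by -0.44 (adjusted P = 7.63e-04), and COL1A2, a chain of type I collagen, by -0.49 (adjusted P = 0.0334) on one probe and -0.18 (adjusted P = 0.0727) on the other. COL5A3, a chain of type V collagen, had -0.18 (adjusted P = 0.0890). In the list of basement membrane and microfibril genes 2 of 4 were called, COL15A1 (-0.36, adjusted P = 0.0209) and COL18A1 (-0.28, adjusted P = 0.0158), whereas COL4A2 had -0.15 and COL6A3 -0.17. Of the genes for fibril-binding proteoglycans and like proteins, 2 of 5 were called. They were DPT, a matrix protein that binds decorin (-0.63 and -0.38 on its probes, adjusted P = 7.19e-04 and 0.00134), and the small proteoglycan BGN (-0.45, adjusted P = 0.00944).

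Of the genes that process collagen, 3 of 4 were called: LEPREL4, of the leprecan family (-0.70, adjusted P = 1.88e-06), CRTAP, a partner of prolyl hydroxylase in collagen synthesis (-0.30, adjusted P = 7.42e-04), and the lysyl oxidase LOXL1 (-0.18, adjusted P = 0.0219). In the list of cell-matrix signalling 7 of 7 were called. The largest differences there were those of DDR1, a collagen receptor tyrosine kinase (-0.78, adjusted P = 1.42e-05), and TGFBR3, a TGF-beta co-receptor (-0.58, adjusted P = 0.00253). Of the proteases and inhibitors, SERPINE2 was called (-0.30, adjusted P = 0.00746) and the collagen-degrading protease CTSK had -0.090 (adjusted P = 0.117). BM190040.1_1872 had the largest difference of the 31 probes, all of them named through this contrast.

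Because breed had chosen the named probes, covariation within a breed was read separately, as a description without P values, and pigs share the array and pool between probes. All 28 matrix probes came from the list of probes higher in LW pigs, and the rest of that list was not set beside them. The values here and for SMOC2 below therefore do not set matrix probes apart from that list. Most matrix probes had r above 0 with the SPARC probes. An r of 0.5 was reached by 2 of 28 in each breed with BM190040.1_1872 (1.41% of all tested probes in B and 2.17% in LW pigs). With CF792848.1_25 it was reached by 9 in B and 8 in LW pigs (1.46% and 3.14% of all tested probes). These counts were not stable. On residuals after housing and slide they were 8 and 4 for the 2 probes in B pigs, and 1 and 7 in LW pigs. With the background capped they were 2 and 5 in B pigs, and 1 and 10 in LW pigs. With BM190040.1_1872, 25 of the 28 other matrix probes had r above 0 in B pigs (median 0.319, compared with 0.0515 and 58.8% above 0 over all tested probes). In LW pigs 26 of 28 did (median 0.328, compared with -0.0084 and 49.0%). With CF792848.1_25 the numbers were 21 of 28 in B pigs (median 0.268, compared with -0.00911 and 48.3% above 0 over all tested probes). In LW pigs they were 25 of 28 (median 0.447, compared with -0.0256 and 46.8%).

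For SMOC2, too, most matrix probes had r above 0. In B pigs 24 of 28 had r above 0 (median 0.210, compared with -0.0982 and 35.4% above 0 over all tested probes). In LW pigs 25 of 28 did (median 0.332, compared with -0.0151 and 48.1%). On residuals after housing and slide 18 of 28 were above 0 in B pigs (median 0.104, with 2 of the 4 fibril collagen probes above 0) and 26 in LW pigs (median 0.398). Without the 2 arrays that stood apart, also chosen after seeing the data, the medians were 0.298 and 0.389 for SMOC2, 0.342 and 0.371 for BM190040.1_1872, and 0.323 and 0.516 for CF792848.1_25. With the background capped they were 0.306 and 0.391, 0.325 and 0.302, and 0.308 and 0.438. The values over all tested probes moved as well. For SMOC2 in B pigs their median was -0.0152 (47.7% above 0) without the 2 arrays and -0.0186 (47.3%) with the background capped.

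**Figure D3:**
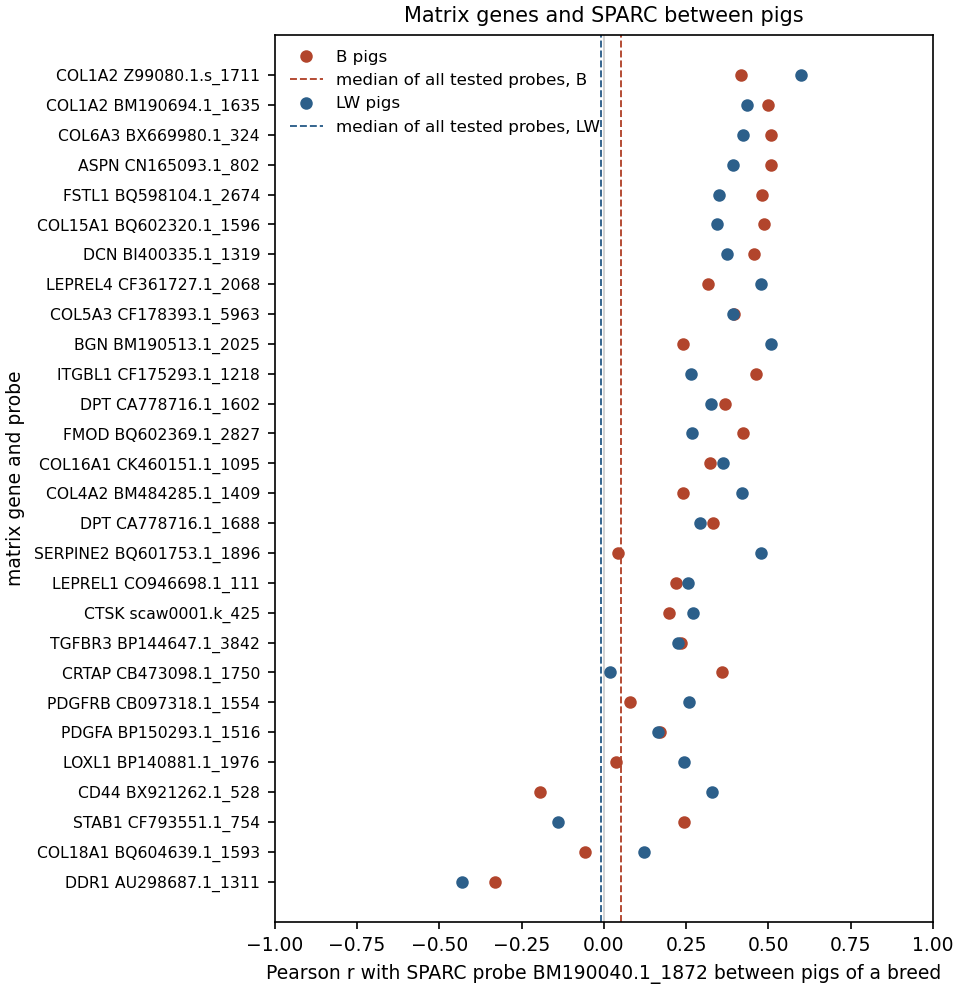
Pearson r between pigs of each of the 28 other matrix probes (vertical axis) with the SPARC probe BM190040.1_1872, within B and within LW pigs, with dashed lines at the median over all tested probes. In B pigs 25 and in LW pigs 26 of the 28 lie above 0, and DDR1 has the lowest r in both breeds (-0.332 and -0.431).

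The r of single collagen genes are given as a description, and differences between genes or breeds were not tested. The COL1A2 probe Z99080.1.s_1711 had r of 0.418 in B and 0.600 in LW pigs with BM190040.1_1872. In LW pigs all 4 fibril collagen probes had r from 0.526 to 0.728 with CF792848.1_25, while in B pigs only COL5A3 did (0.686), with 0.153 to 0.197 for the other 3. On residuals after housing and slide the COL1A2 probes had r of -0.0228 and 0.0400 with CF792848.1_25 in B pigs. COL6A3, a chain of type VI collagen, had r of 0.506 and 0.421 with BM190040.1_1872, and 0.555 and 0.453 with SMOC2, in B and LW pigs. COL4A2 had 0.239 and 0.420 with BM190040.1_1872, 0.232 and 0.458 with CF792848.1_25, and -0.121 and -0.0216 with SMOC2. For COL18A1 these were -0.0561 and 0.122, 0.330 and 0.484, and 0.459 and 0.0362. The negative r of COL4A2 with SMOC2 were not kept once the 2 faulty arrays were left out or capped. All 4 basement membrane and microfibril probes then had r above 0 with SMOC2. The lowest was 0.298 in B and 0.066 in LW pigs without these arrays, and 0.281 and 0.068 with the background capped. The collagen receptor DDR1 was lower in B pigs yet had negative r within breeds, of -0.332 and -0.431 with BM190040.1_1872, -0.226 and -0.230 with CF792848.1_25, and -0.455 and -0.294 with SMOC2. On residuals after housing and slide these were -0.501 and -0.377, -0.138 and -0.0409, and -0.211 and -0.269, so for CF792848.1_25 in LW pigs little of it remained.

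Of all tested probes, those most like each member over the 40 pigs, by r of the residuals of the model, were found for BM190040.1_1872 and for SMOC2. Symbols came only from the study's list of probes higher in LW pigs. A probe without a symbol is therefore one outside that list, and the genes named here could come only from it. For SPARC they were BI183779.1_87 (0.724) and CB286553.1_551 (0.661), which have no symbol there, SECTM1 (0.600), BICC1 (0.596) and the COL1A2 probe Z99080.1.s_1711 (0.560). COL1A2 was 19th among all probes, since no more than 2 probes without a symbol were taken. For SMOC2 they were FNBP1 (0.653), BF441551.1_375 (0.650) and BM482088.1_1036 (0.629), of which the latter pair has no symbol, LRP6 (0.602) and CDKN2C (0.598). Likeness did not always hold in each breed, as LRP6 and SMOC2 had r of -0.0841 in B and 0.566 in LW pigs. The order rested in part on the 2 faulty arrays. With their background capped BI183779.1_87 was still 1st for SPARC (0.664). CB286553.1_551 was then 9th (2nd before), BICC1 5th (11th before), SECTM1 12th (10th before) and COL1A2 21st (19th before). For SMOC2, FNBP1 was 11th (0.605) and the other 4 named were 23rd to 29th.

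Cell type markers were read through the same list of names. The fibre genes ACTA1 and MYH1, 2 of 11 fibre markers named, were well above background on 40 of 40 arrays. So were the DCN, DPT, PDGFRB and ACTA2 probes and, in total, 9591 of the 15198 gene probes. This criterion therefore does not test the muscle label. MYH1 differed by -0.66 between breeds (adjusted P = 0.00159) and ACTA1 by -0.29 (adjusted P = 0.195). Of 9 fibroblast markers 3 could be named: DPT, called as above, CD248 (-0.16, adjusted P = 0.0369) and DCN (-0.17, adjusted P = 0.222). Of 5 markers of pericytes and smooth muscle 2 could be named, PDGFRB (-0.31, adjusted P = 0.00208) and ACTA2 (-0.27, adjusted P = 0.183). None of the 6 endothelial, 7 adipocyte, 7 immune, 3 blood and 2 satellite cell markers had a named probe. Within breeds, the 4 fibroblast probes had a median r of 0.350 in B and 0.350 in LW pigs with BM190040.1_1872, of 0.506 and 0.496 with CF792848.1_25, and of 0.186 and 0.462 with SMOC2. For the 2 fibre probes these medians were 0.345 and 0.190, 0.0993 and 0.353, and -0.202 and 0.251. The SMOC2 value in B pigs was -0.248 on residuals after housing and slide. It was -0.0398 with loess, -0.0495 without the 2 arrays that stood apart and -0.0629 with their background capped, all 3 chosen after seeing the data. Beside the -0.202 the median over all tested probes was -0.0982. That median was -0.0129 with loess, -0.0152 without the 2 arrays and -0.0186 with the background capped. The part of cell composition in the SPARC and SMOC2 differences was not tested.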

How the data were processed

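The authors deposited the scanner output of Agilent Feature Extraction for 40 arrays, that is, the intensity of each spot in Cy3 (pig) and Cy5 (pool) on a linear scale before any normalization, and the same output holds signals processed by that software. The authors also deposited log2 ratios in a series matrix. Set against log2 ratios of the processed signals, these had a median r of 0.994 over arrays (lowest 0.680), a median slope of 0.948 and array medians from -0.015 to 0.026, which gave their direction (pig over pool) and centring, and the submitters' notes name limma. The series matrix holds 11373 of the tested probes.

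With limma 3.58.1 (R 4.3.3), background was corrected by normexp with an offset of 50, log2(Cy3/Cy5) was taken and each array's median subtracted. Spots with an outlier mark (2396) were omitted and saturated spots (83) kept. Correlations between arrays ranged from -0.34 to 0.83, and the stated dye direction was kept. Probes well above background in Cy3 on 10 or more arrays of a breed were tested, which gave 12222. Slide, breed, housing system and the interaction of breed with housing were terms of 1 model (lmFit and eBayes), with Benjamini-Hochberg adjustment over all tested probes at 0.05. Intervals are 95%. Correlations were computed in Python 3.11.15 with permutation tests (random permutations, or all of them under 10 pigs). The code was tested on simulated data. Precision is limited by the number of pigs.

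The members and lists were chosen with earlier results of these data known. Named genes were the 3 members, all genes of the matrix and marker lists with a named probe, and the 5 probes with the highest r of model residuals to BM190040.1_1872 and to BQ604505.1_1276, at most 2 of each 5 without symbol. Symbols came from the probe column of the study's list of genes higher in LW pigs, as the companion list could not be paired with probes. Alternatives changed background, normalization, filters, outlier spots, the slide term, weights, the replicate block and the arrays used. Loess for matrix genes, leaving out 2 arrays for covariation and channel spread, and capping the local background of single spots at 10 times the array's median (such spots were set to that median) were chosen after seeing the data. Normexp was upset by such spots on 2 arrays, whose values were kept as planned.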

Additional observations from a re-analysis of the deposited data

How the results depend on the processing

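The breed differences of the 3 probes were negative and called under all 17 alternatives that refit the model, from -1.56 to -1.43 for BM190040.1_1872, from -0.84 to -0.61 for CF792848.1_25 and from -0.98 to -0.45 for SMOC2, and without each pig in turn they ranged from -1.54 to -1.41, -0.74 to -0.65 and -0.47 to -0.43. Within slides, values that moved by more than the within-group SD of single pigs were -0.60 for SMOC2 on slide 2 (1 pig of each breed, whose difference spreads more widely than single pigs) and -0.86 for BM190040.1_1872 on slide 6. With the replicate number as a block the differences were -1.48, -0.68 and -0.45 (adjusted P = 5.90e-06, 3.89e-05 and 5.39e-06) and 2258 in place of 2583 probes were called. Pigs that share a number had a median r of -0.018 over probes, and 2 of 20 numbers correlated best with their own. The count of matrix probes called lower ranged from 17 (replicate block) to 26. Called probes over all genes reached 1731 in C and 2181 in A with array weights, compared with 1007 and 926. Without the 2 arrays the Cy5 SD of BM190040.1_1872 was 0.078 in place of 0.42, and with the local background capped 0.10. Of the 3 probes that of SMOC2 lay nearest to background.

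Of 192 housing and interaction values 33 turned sign and 0 were called (lowest adjusted P = 0.811), and the cause was not tested. For A minus C, BM190040.1_1872 had -0.0055 without background correction, -0.022 with no slide term and in the two-step analysis, -0.014 with slide as a random block, -0.020 with scan day and -0.021 with array weights, and 0.0077 in LW pigs without the 2 arrays. CF792848.1_25 had -0.012 (no slide, two-step), -0.0077 (block) and -0.025 (scan day). In B pigs it had 0.11 (series matrix), 0.097 (outliers kept), 0.0050 (no slide, two-step), 0.032 (weights) and 0.0028 (without 2 arrays), and in LW pigs -0.029 (no slide, two-step), -0.012 (block) and -0.016 (scan day). Its interaction was 0.080 (series matrix), 0.044 (outliers kept), 0.034 (no slide, two-step) and 0.0076 (block). SMOC2 in LW pigs had -0.0018 (loess), -0.023 (series matrix), -0.058 (no slide, two-step), -0.041 (block), -0.043 (scan day) and -0.011 (weights).

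Without each pig in turn, 77 of 480 such values turned sign and 0 were called. For BM190040.1_1872 they ranged from -0.053 to 0.060 (both breeds), -0.080 to 0.13 (B), -0.13 to 0.062 (LW) and -0.086 to 0.15 (interaction). CF792848.1_25 gave -0.030 to 0.069, -0.069 to 0.079, -0.048 to 0.16 and -0.18 to 0.035, and SMOC2 in LW pigs -0.032 to 0.051.

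For covariation, r of the SPARC probes kept its sign but was not called within B in C (0.804), B in A (0.439), LW in C (0.782), LW in A (0.657), or B pigs of scan days 2 (0.70) and 3 (0.626), where fewer pigs were compared. Its rho was called within B in C (0.933) and in B pigs of scan day 2 (0.891). BM190040.1_1872 and SMOC2 in B pigs turned sign on residuals (-0.0271), in A (-0.0140), with processed signals (-0.0719) and on scan day 3 (-0.0414). The values on residuals, in A and on scan day 3 include the faulty array of B alternative replicate 15 and were not taken with its background capped. On scan day 2 in LW pigs SMOC2 was called with both SPARC probes (0.796 and 0.753), as it was with CF792848.1_25 in B pigs without the 2 farthest (0.625). The values of scan day 2 in LW pigs include the faulty array of LW alternative replicate 18. They were not taken without it or with its background capped. The cause of these changes was not tested.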
